A study of Homo sapiens with 12 samples.

Results

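Transcript levels of the nuclear genes for the mitochondrial respiratory chain and ATP synthase were followed in LNCaP, a human prostate adenocarcinoma line that responds to androgen, after silencing of serum response factor (SRF) and after androgen. Genes were taken by symbol: NDUFA, NDUFB, NDUFC, NDUFS and NDUFV genes for complex I, UQCR genes for complex III, COX4 to COX8 genes for complex IV and ATP5 genes for ATP synthase. The rule found 78 of the 19775 genes that have a probe set with a single symbol on the array. Of these, 73 were protein-coding subunit genes and 5 were noncoding or pseudogene symbols. In all, 70 passed the filter on low signal and were tested: 32 of 32 genes of complex I, 6 of 6 of complex III, 12 of 17 of complex IV, 17 of 18 of ATP synthase, and 3 of the 5 noncoding or pseudogene symbols. The arrays measure a whole culture, so a lower signal in each cell and fewer cells with that signal cannot be told apart. Each gene was represented by its brightest probe set, by mean signal.

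The respiratory chain passes electrons from NADH to oxygen through complexes of the inner mitochondrial membrane. Complex I takes electrons from NADH, complex III passes them from ubiquinol to cytochrome c, and complex IV reduces oxygen. These complexes pump protons, and ATP synthase uses the returning protons to turn its rotor and make ATP. A few core subunits are encoded in mitochondrial DNA, and the nuclear genes described here encode most of the others, many of them small accessory proteins.

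The study crossed siRNA with androgen on 12 expression arrays. LNCaP cells received control siRNA or siRNA against SRF, a transcription factor of growth response and actin cytoskeleton genes, and then 5 nM R1881, a synthetic androgen, or ethanol vehicle. All 4 groups shared 48 h of androgen deprivation before transfection, and treatment began 42 h after transfection and lasted 48 h. Each group held 3 arrays, called biological replicates without mention of separate cultures, and the p-values cover only the variation seen among them. A gene was called where limma's adjusted p was under 0.05 over all 10265 genes tested, and changes are differences of log2 signal ± SE of the moderated fit.

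SRF itself was lower in the silenced cells, with a log2 change of -1.34 ± 0.14 in vehicle (limma adjusted p = 7.98e-06, 39.5% of the control signal) and -1.44 ± 0.14 in R1881 (adjusted p = 3.31e-06, 36.9%). All 7 measured luminal prostate markers lay above a mean log2 level of 4 in every group. Of the markers of other cells, 1 of 5 basal or mesenchymal, 1 to 2 of 7 fibroblast and 0 to 1 of 5 leukocyte genes did so. Summed log2 levels of the 7 luminal markers were 70.7 to 71.5 with control siRNA and 67.5 to 67.8 with SRF siRNA in vehicle, and 83.2 to 83.3 and 81.0 to 81.7 in R1881. Those of the 5 basal or mesenchymal markers ran from 16.6 to 17.2 in control cells and reached 18.2 after silencing in vehicle and 19.1 after silencing in R1881, with every silenced array above every control array. Those of the 7 fibroblast markers were 24.8 to 26.5 in vehicle and 21.6 to 23.2 in R1881. Those of the 5 leukocyte markers were 13.2 to 15.1 after silencing in R1881 and 12.3 to 12.7 in the other groups. The part of these markers in the results was not tested. The GAPDH control probe sets, whose difference between the 3′ and the 5′ end is a sign of RNA quality, differed by 0.07 to 0.24 (log2) in control siRNA with vehicle, 0.45 to 0.49 in control siRNA with R1881, 0.32 to 0.39 after silencing in vehicle and 0.37 to 0.64 after silencing in R1881. This difference moved with R1881 in control cells and with silencing in vehicle, and its part was not tested beyond fits with it as a covariate, whose counts are given with the results of each comparison. In both of these comparisons its ranges did not overlap between the groups, so such fits separate its part poorly. They called 38.2% and 38.4% of all genes there, against 60.6% and 55.7% without the covariate.

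The promoters of 5 members that lead the results are printed first. NDUFB1 and COX8A are among the subunits that fell most after silencing, COX7B2 is the one that rose most, and NDUFB4 and UQCR10 fell and rose with R1881. Each sequence is RefSeq's (GRCh38.p14), runs from 250 bases before to 50 bases after the annotated start, and has in capitals each match to the NRF1, ETS, YY1, TATA or CArG motif searched.
NDUFB1, chr14:92121657-92121956, minus strand: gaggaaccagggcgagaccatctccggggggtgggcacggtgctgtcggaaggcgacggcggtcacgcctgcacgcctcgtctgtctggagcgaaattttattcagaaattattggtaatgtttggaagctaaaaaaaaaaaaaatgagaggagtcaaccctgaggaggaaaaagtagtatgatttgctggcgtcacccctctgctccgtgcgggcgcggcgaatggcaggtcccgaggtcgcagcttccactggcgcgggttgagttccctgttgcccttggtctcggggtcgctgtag
COX8A, chr11:63974370-63974669, plus strand: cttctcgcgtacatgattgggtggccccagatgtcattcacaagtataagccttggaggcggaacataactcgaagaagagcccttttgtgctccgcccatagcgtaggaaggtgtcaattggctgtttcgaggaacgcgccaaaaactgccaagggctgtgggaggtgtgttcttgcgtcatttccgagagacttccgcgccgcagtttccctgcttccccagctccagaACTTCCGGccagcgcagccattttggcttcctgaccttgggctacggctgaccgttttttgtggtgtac
COX7B2, chr4:46909196-46909495, minus strand: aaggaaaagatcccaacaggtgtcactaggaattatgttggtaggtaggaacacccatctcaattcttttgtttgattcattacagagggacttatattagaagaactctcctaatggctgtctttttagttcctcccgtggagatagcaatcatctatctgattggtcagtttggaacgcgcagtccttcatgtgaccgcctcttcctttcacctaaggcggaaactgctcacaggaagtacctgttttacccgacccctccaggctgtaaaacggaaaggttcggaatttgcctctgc
NDUFB4, chr3:120596086-120596385, plus strand: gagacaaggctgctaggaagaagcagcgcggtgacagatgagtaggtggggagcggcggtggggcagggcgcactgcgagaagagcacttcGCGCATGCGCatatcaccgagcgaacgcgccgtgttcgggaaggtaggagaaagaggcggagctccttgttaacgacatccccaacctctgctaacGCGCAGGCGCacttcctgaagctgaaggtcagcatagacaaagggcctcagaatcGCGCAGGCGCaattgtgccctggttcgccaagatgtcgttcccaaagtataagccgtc
UQCR10, chr22:29767119-29767418, plus strand: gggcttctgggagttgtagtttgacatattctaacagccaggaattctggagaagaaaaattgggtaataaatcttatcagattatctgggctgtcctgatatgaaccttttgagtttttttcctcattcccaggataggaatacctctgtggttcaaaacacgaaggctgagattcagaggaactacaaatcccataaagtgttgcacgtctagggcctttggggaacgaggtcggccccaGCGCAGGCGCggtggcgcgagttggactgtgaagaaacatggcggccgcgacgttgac
The capitals mark 1 ETS match in COX8A, 3 NRF1 matches in NDUFB4 and 1 NRF1 match in UQCR10. The NDUFB1 and COX7B2 windows held no match to those motifs.

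Motifs were counted on both strands of the 300-base windows of 63 subunit genes with an entry, of 8514 genes tested on these arrays and of all 27305 RefSeq promoters in the table. Shares among tested genes and among all promoters differ, and both are given in that order. The NRF1 motif, GCGCA and GCGC with any base between, named for a regulator of nuclear genes of mitochondrial proteins, was in 14 of 63 subunit promoters (22.2%, against 13.2% and 6.28%). The ETS motif CCGGAAGT was in 8 (12.7%, against 9.88% and 4.44%) and the YY1 motif AAGATGGCG in 7 (11.1%, against 4.45% and 1.85%). The GC box GGGCGG was in 40 (63.5%), below its share of 71.4% among tested genes and above that of 44.6% among all promoters. TATAAA was in 7 (11.1%, against 5.13% and 12.0%). The full androgen response element, AGAACA and TGTTCT with any 3 bases between, was in 0 of 63, in 0 of the tested genes and in 1 of all promoters. AGAACA alone, which is part of it, was in 7 (11.1%, against 8.56% and 14.9%). The CArG box, the motif SRF binds, was in 2, NDUFA7 and NDUFB6 (3.17%, against 0.963% and 1.29%). These are counts of letters in a short window and are given as a description.

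SRF silencing lowered more of these genes than it raised. In vehicle 27 of the 70 tested members fell and 6 rose, where 25.0% of all tested genes fell and 30.7% rose. In R1881 23 fell and 7 rose, against 25.4% and 33.6% of all genes. The median change of the members was -0.09 in both, against 0.04 and 0.06 over all genes. In either direction 33 and 30 members were called, 47.1% and 42.9% of those tested, against 55.7% and 59.0% of all genes. Without the filter this order turned, with 35 and 32 of 78 members called against 27.3% and 29.0% of 19775 genes.

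The changes were small. The tested subunit genes were brighter than most, with a median log2 level of 11.8 against 7.74 for all genes tested. Of 67 subunit genes 58 lay above 10, where 15.7% of all genes did. The part of signal level in the comparisons with all genes was not tested. By at least 0.5 on the log2 scale 2 members rose and 5 fell in vehicle, against 17.1% and 13.9% of all genes. In R1881 2 rose and 7 fell by that much, against 20.5% and 14.9%. Of the 70 members, NDUFB1 and COX7B2 changed by 1 or more. The comparisons in vehicle and in R1881 share no array, and 26 members were called in both: 21 lower, 5 higher and 0 in opposite directions. These are 78.8% of the members called in vehicle and 86.7% of those called in R1881. Over all genes 16.5% were lower in both, 22.0% higher in both and 2.68% opposite. Across the 70 members Pearson's r between both sets of changes was 0.92 and Spearman's rho 0.82, across genes that are not independent.

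**Figure D1:**
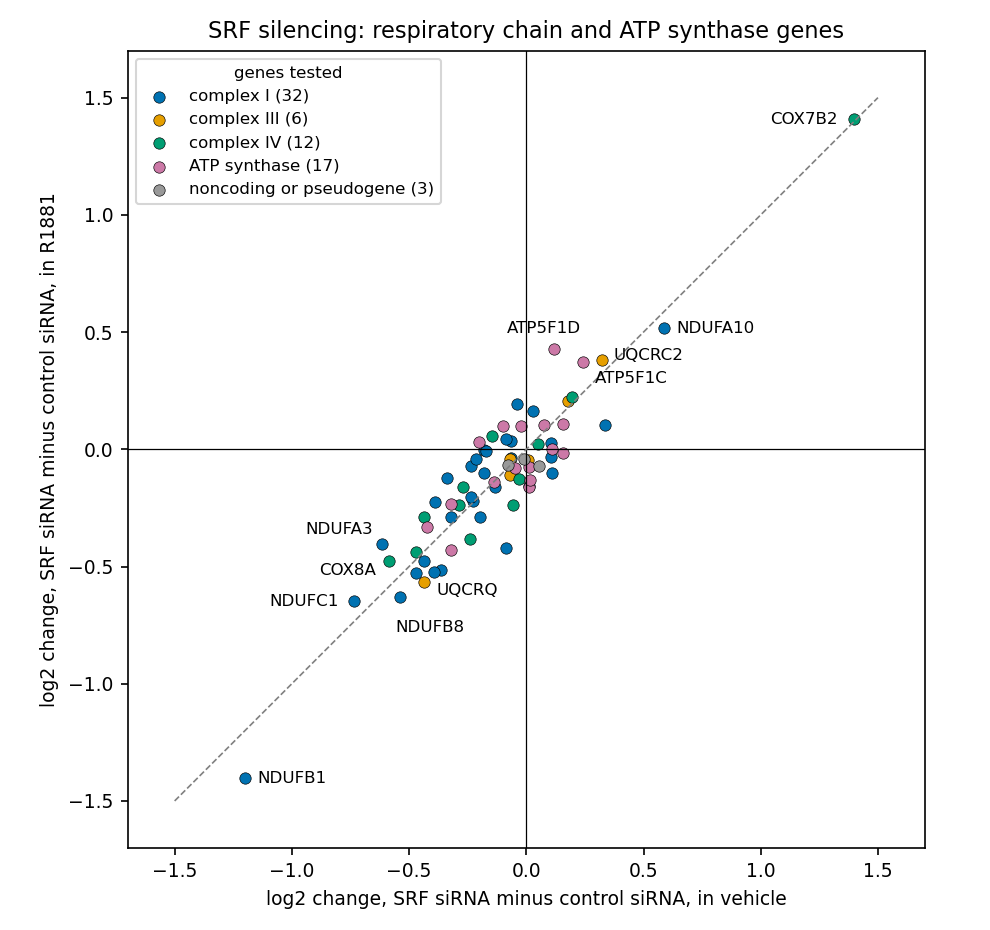
Change in log2 signal with SRF silencing in vehicle (horizontal) and in R1881 (vertical) for the 70 tested genes, coloured by complex, with the line of equal change dashed. NDUFB1 lies at -1.20 and -1.40, COX7B2 at 1.40 and 1.41, and most complex I and complex IV genes lie below 0 on both axes.

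In complex I 16 of 32 genes fell and 2 rose in vehicle, and 13 fell and 1 rose in R1881. Over all genes 25.0% fell and 30.7% rose in vehicle, and 25.4% fell and 33.6% rose in R1881. NDUFB1, a small accessory subunit of the membrane arm, fell most. Its log2 signal was 12.89, 12.99 and 12.84 on the 3 arrays of control siRNA with vehicle, and 11.74, 11.70 and 11.68 after silencing. In R1881 it was 12.81, 12.94 and 12.87 with control siRNA and 11.52, 11.43 and 11.47 with SRF siRNA. Every silenced array lay below every control array. The changes were -1.20 ± 0.07 in vehicle (limma adjusted p = 4.89e-08) and -1.40 ± 0.07 in R1881 (adjusted p = 1.15e-08), which left 43.6% and 37.8% of the control signal.

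NDUFC1, another accessory subunit of the membrane arm, read 12.01, 11.99 and 12.05 with control siRNA and 11.21, 11.38 and 11.25 after silencing in vehicle, a change of -0.74 ± 0.07 (limma adjusted p = 3.57e-06). In R1881 it read 12.27, 12.37 and 12.26 with control siRNA and 11.71, 11.58 and 11.66 after silencing, a change of -0.65 ± 0.07 (adjusted p = 7.48e-06). Arrays of silenced and control cells did not overlap under either treatment. A far dimmer second probe set of NDUFC1 did not follow it, with changes of 0.33 (adjusted p = 0.246) and 0.65 (adjusted p = 0.0279) in a fit of all probe sets. NDUFB8, a membrane arm subunit whose protein is commonly used as a marker of assembled complex I, changed by -0.54 ± 0.09 and -0.63 ± 0.09. Its second bright probe set moved with it, and a dim one changed by -0.40 and 0.68.

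The NDUFB genes, which encode the distal part of the membrane arm, had 6 of 11 genes lower and 0 higher under both treatments. Of all genes 16.5% were lower and 22.0% higher under both. Beside NDUFB1 and NDUFB8, NDUFB2 changed by -0.47 ± 0.09 in vehicle and -0.53 ± 0.09 in R1881. NDUFB6 changed by -0.40 ± 0.07 and -0.52 ± 0.07, and NDUFB11 by -0.37 ± 0.08 and -0.52 ± 0.08. NDUFB3 changed by -0.20 and -0.29. NDUFB4, NDUFB5, NDUFB7, NDUFB9 and NDUFB10 did not pass the test, with changes between -0.18 and 0.19.

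Among 12 NDUFA genes, 6 fell and 2 rose in vehicle, and 4 fell and 1 rose in R1881. Over all genes 25.0% fell and 30.7% rose in vehicle, and 25.4% fell and 33.6% rose in R1881. The share of NDUFA genes that fell in R1881 was near that of all genes. NDUFA3, an accessory subunit of the membrane arm, changed by -0.61 ± 0.13 in vehicle (limma adjusted p = 0.00137) and -0.40 ± 0.13 in R1881 (adjusted p = 0.0156). NDUFA13, also known as GRIM-19, changed by -0.44 ± 0.08 and -0.48 ± 0.08, and NDUFA12 by -0.39 ± 0.08 and -0.23 ± 0.08. NDUFA10, an accessory subunit, went the other way. Its signal was 9.64, 9.67 and 9.87 with control siRNA and 10.45, 10.25 and 10.25 after silencing in vehicle, and 9.59, 9.44 and 9.48 against 9.91, 10.10 and 10.05 in R1881. It rose by 0.59 ± 0.09 (adjusted p = 1.51e-04) and 0.52 ± 0.09 (adjusted p = 3.47e-04), with no overlap between control and silenced arrays. NDUFA5 rose in vehicle, by 0.33 ± 0.07 (adjusted p = 0.00177), and changed by 0.10 ± 0.07 in R1881.

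The nuclear core subunits of complex I include those that carry the electrons. Of 5 tested, 3 fell in vehicle and 1 in R1881, where 25.0% and 25.4% of all genes fell. The share in R1881 was near that of all genes. NDUFS7, which holds the last iron-sulfur cluster before ubiquinone, changed by -0.32 ± 0.08 and -0.29 ± 0.08. NDUFV2, an iron-sulfur protein of the NADH-oxidizing module, changed by -0.34 ± 0.08 in vehicle and -0.12 ± 0.08 in R1881. NDUFS1, the largest iron-sulfur subunit, changed by -0.21 ± 0.06 and -0.04 ± 0.06. Both dimmer probe sets of NDUFS1 that passed the filter rose in vehicle, by 0.49 (adjusted p = 0.00432 when every probe set was fitted) and 0.40 (adjusted p = 0.00777). In R1881 the first rose by 0.87 (adjusted p = 6.52e-05) and the other changed by 0.21 (adjusted p = 0.115). NDUFV1, which binds NADH and flavin, and NDUFS3 did not pass the test under either treatment, with changes between -0.17 and 0.04.

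Complex III was divided. UQCRQ, a small subunit next to cytochrome b, read 12.61, 12.66 and 12.62 with control siRNA and 12.17, 12.25 and 12.17 after silencing in vehicle. In R1881 it read 12.80, 12.96 and 12.82 against 12.26, 12.34 and 12.28, so silenced and control arrays were separate under both treatments. It changed by -0.43 ± 0.07 (limma adjusted p = 1.47e-04) and -0.56 ± 0.07 (adjusted p = 1.46e-05). UQCRC2, a core protein of the complex, rose by 0.32 ± 0.07 and 0.38 ± 0.07, and UQCR11 by 0.18 ± 0.07 and 0.21 ± 0.07. UQCRC1, UQCRB and UQCR10 did not pass the test on their brightest probe sets, with changes between -0.11 and 0.01. A dimmer probe set of UQCRB rose by 0.55 and 0.62 (limma adjusted p = 4.66e-04 and 1.50e-04 in the fit of all probe sets).

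In complex IV 6 of 12 genes fell and 2 rose under each treatment, and 5 of those that fell were lower under both. Over all genes 25.0% fell and 30.7% rose in vehicle, 25.4% fell and 33.6% rose in R1881, and 16.5% were lower under both. COX8A, a small membrane subunit, read 12.71, 12.84 and 12.78 with control siRNA and 12.15, 12.21 and 12.23 after silencing in vehicle, and 12.78, 12.90 and 12.80 against 12.45, 12.24 and 12.37 in R1881. The silenced arrays were all below the control arrays. The changes were -0.58 ± 0.07 (limma adjusted p = 3.24e-05) and -0.48 ± 0.07 (adjusted p = 1.35e-04). COX7C changed by -0.47 ± 0.08 and -0.44 ± 0.08, COX5B by -0.43 ± 0.07 and -0.29 ± 0.07, COX6C by -0.29 ± 0.08 and -0.24 ± 0.08, and COX7A2 by -0.24 ± 0.07 and -0.38 ± 0.07. COX6B1 fell in R1881, with a change of -0.24 ± 0.07 (adjusted p = 0.0110), and changed by -0.06 ± 0.07 in vehicle. COX5A, in contrast, rose by 0.19 ± 0.07 and 0.22 ± 0.07.

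COX7B2 had the largest rise of any member. It is a paralog of COX7B known mainly from testis. Its signal was 6.93, 6.82 and 7.06 in control cells with vehicle, 7.47, 7.49 and 7.38 in control cells with R1881, 8.20, 8.50 and 8.31 after silencing in vehicle, and 8.70, 8.87 and 8.98 after silencing in R1881. The 4 groups did not overlap, in this order from low to high. Silencing raised it 2.64-fold in vehicle (1.40 ± 0.10, limma adjusted p = 3.62e-07) and 2.65-fold in R1881 (1.41 ± 0.10, adjusted p = 2.35e-07). COX7B itself read 12.44, 12.50 and 12.56 in control cells with vehicle and 12.33, 12.27 and 12.09 after silencing. It changed by -0.27 ± 0.08 in vehicle (adjusted p = 0.0111) and -0.16 ± 0.08 in R1881 (adjusted p = 0.0957). The 2 paralogs thus had opposite calls in vehicle. A dimmer probe set of COX7B changed by 0.18 in vehicle and rose by 0.71 in R1881. Signals of different probe sets give no order of transcript level.

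**Figure D2:**
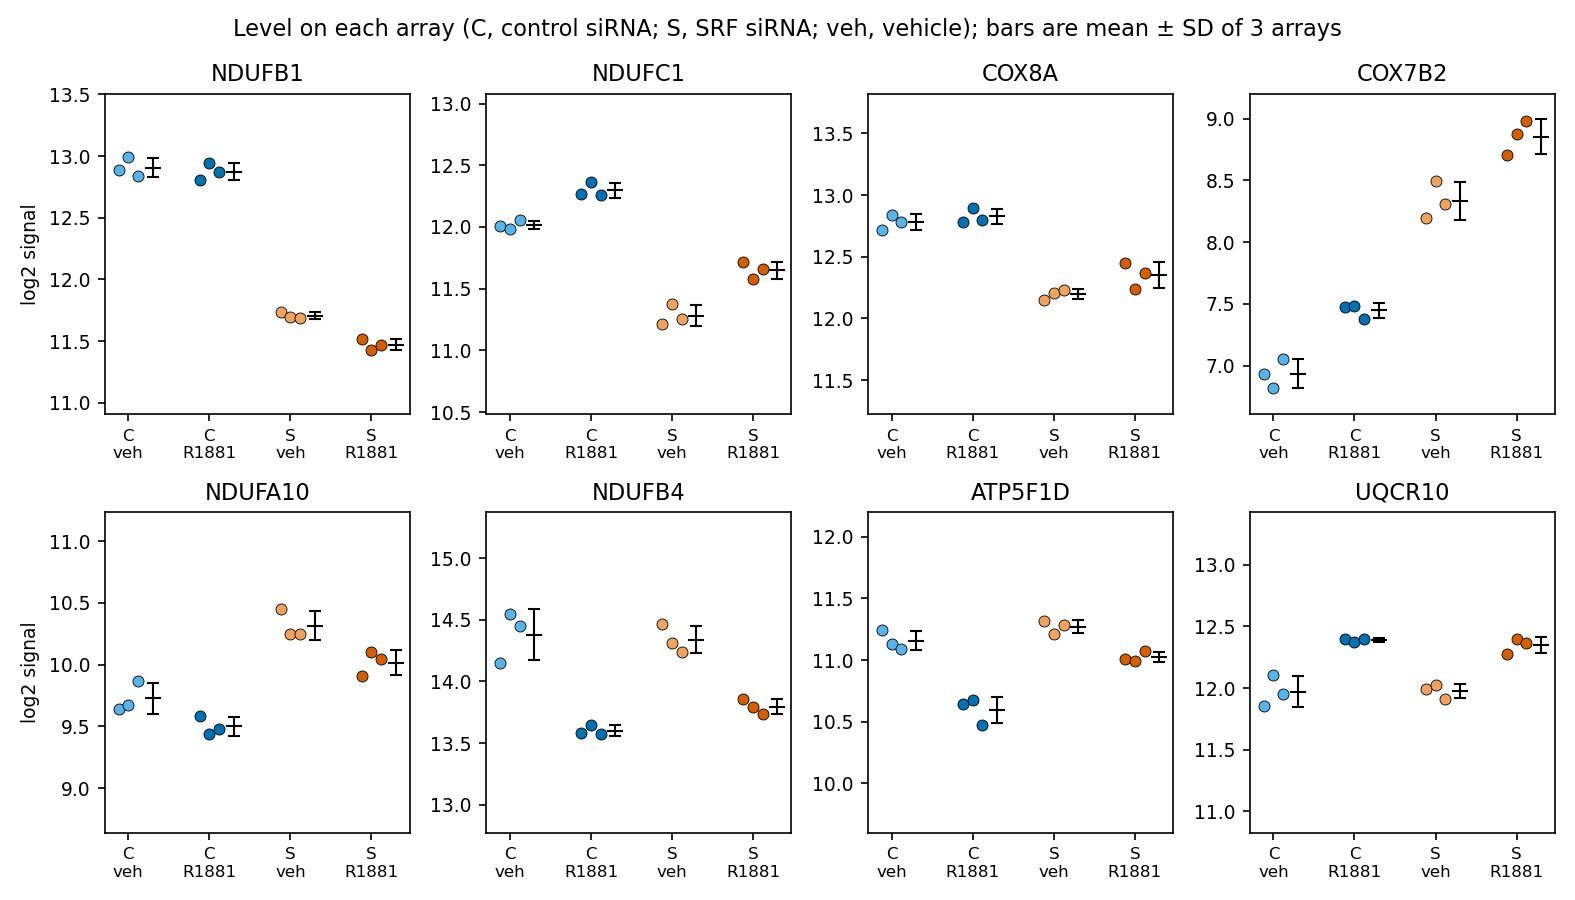
Log2 signal of 8 genes on each of the 12 arrays, by group, with the mean and SD of 3 arrays beside the points and a separate scale in each panel. NDUFB1, NDUFC1 and COX8A are lower and COX7B2 and NDUFA10 higher with SRF siRNA, and NDUFB4 and ATP5F1D are lower and UQCR10 higher with R1881.

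ATP synthase had fewer calls. Of its 17 tested genes, 4 fell and 0 rose in vehicle, and 3 fell and 2 rose in R1881. Over all genes 25.0% fell and 30.7% rose in vehicle, and 25.4% fell and 33.6% rose in R1881. The share of ATP synthase genes that fell in vehicle, 23.5%, was near that of all genes and is no result about the enzyme. ATP5F1E, the epsilon subunit of the rotor stalk, changed by -0.42 ± 0.08 in vehicle (limma adjusted p = 0.00104) and -0.33 ± 0.08 in R1881 (adjusted p = 0.00471). ATP5IF1, the inhibitor that blocks ATP hydrolysis by the enzyme, changed by -0.32 ± 0.08 and -0.43 ± 0.08. ATP5MC3, one of 3 genes for the c subunit of the membrane rotor, changed by -0.32 ± 0.06 and -0.24 ± 0.06, but its dimmer probe set rose by 0.78 and 1.01. The gamma subunit gene ATP5F1C and the delta subunit gene ATP5F1D rose in R1881, by 0.37 ± 0.10 and 0.43 ± 0.07. ATP5PD fell in vehicle, with a change of -0.20 ± 0.08.

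The count of members that rose after silencing depended on the probe set, the scaling and the RNA quality measure. With the most variable probe set per gene 14 rose and 21 fell in vehicle, and 16 rose and 19 fell in R1881. Quantile normalization gave 8 and 27 in vehicle and 12 and 19 in R1881, and moved the median of complex III in R1881 from -0.04 to 0.06 and that of ATP synthase from -0.02 to 0.03. With the GAPDH difference as a covariate 3 rose and 21 fell in vehicle, and 7 rose and 25 fell in R1881. That fit called 38.4% and 58.9% of all genes, against 55.7% and 59.0% without the covariate.

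With R1881 the share of these genes called was below that of all genes that passed the filter in both directions, and the changes were small. In control cells 13 members rose and 15 fell, against 26.9% and 33.8% of all genes. In silenced cells 12 rose and 14 fell, against 25.5% and 27.7%. The median change was -0.04 and -0.01, against -0.05 and -0.03 over all genes. The median absolute change of the members was 0.15 and 0.16, against 0.36 and 0.29 for all genes. The subunit genes were brighter, with a median log2 level of 11.8 against 7.74, and the part of this was not tested. In either direction 28 and 26 members were called, against 60.6% and 53.1% of all genes. This order depended on the filter. Without it 30 and 27 of 78 members were called, a larger share than the 30.2% and 25.9% of 19775 genes. By at least 0.5 on the log2 scale 1 member rose and 2 fell in control cells (16.3% and 20.7% of all genes), and 1 rose and 1 fell in silenced cells (14.1% and 14.7%). These comparisons share no array, and 16 members were called in both: 8 higher, 8 lower and 0 in opposite directions. Over all genes 18.3% were higher in both, 21.6% lower in both and 1.57% opposite.

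In complex I 6 of 32 genes rose and 7 fell with R1881 in control cells, and 8 rose and 7 fell in silenced cells. Over all genes 26.9% rose and 33.8% fell in control cells, and 25.5% rose and 27.7% fell in silenced cells. In either direction 40.6% and 46.9% of complex I genes were called, against 60.6% and 53.1% of all genes. The share that rose in silenced cells was near that of all genes. NDUFB4, an accessory subunit of the membrane arm, fell most. It read 14.15, 14.54 and 14.45 in vehicle and 13.58, 13.65 and 13.58 in R1881 with control siRNA, and 14.46, 14.31 and 14.24 against 13.86, 13.79 and 13.74 after silencing. R1881 arrays lay below vehicle arrays with either siRNA. The changes were -0.78 ± 0.10 (limma adjusted p = 2.74e-05, 58.4% of vehicle) and -0.54 ± 0.10 (adjusted p = 6.23e-04, 68.6%).

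The flavin- and NADH-binding NDUFV1 and its partner NDUFV2 went opposite ways. NDUFV1 read 11.33, 11.54 and 11.54 in vehicle and 11.00, 11.02 and 11.07 in R1881 with control siRNA, a change of -0.44 ± 0.07 (limma adjusted p = 2.23e-04). After silencing it changed by -0.27 ± 0.07 (adjusted p = 0.00722). NDUFV2 read 12.19, 12.32 and 12.40 in vehicle and 12.52, 12.59 and 12.49 in R1881, a change of 0.23 ± 0.08 (adjusted p = 0.0211). After silencing it read 12.06, 11.95 and 11.88 against 12.33, 12.45 and 12.45 and rose by 0.45 ± 0.08 (adjusted p = 4.08e-04). Vehicle and R1881 arrays of both genes were separate with either siRNA. The core gene NDUFS3 changed by -0.22 ± 0.07 in control cells and -0.09 ± 0.07 in silenced cells, NDUFS7 by 0.18 ± 0.08 and 0.22 ± 0.08, and NDUFS1 by -0.14 ± 0.06 and 0.03 ± 0.06, with a call for NDUFS3 in control and NDUFS7 in silenced cells.

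NDUFA6, an accessory subunit of the LYR protein family, rose by 0.41 ± 0.07 in control cells (limma adjusted p = 2.45e-04) and by 0.38 ± 0.07 in silenced cells (adjusted p = 5.63e-04). NDUFC1 rose by 0.28 ± 0.07 and 0.37 ± 0.07, and NDUFA2 by 0.22 ± 0.08 in both. Thus NDUFC1 and NDUFA2 rose with R1881 and fell with silencing. NDUFA10 and NDUFA5, which rose with silencing in vehicle, fell with R1881: NDUFA10 changed by -0.23 ± 0.09 and -0.30 ± 0.09, and NDUFA5 by -0.18 ± 0.07 and -0.41 ± 0.07. NDUFA9 was called lower in silenced cells, with changes of -0.14 ± 0.07 in control cells and -0.28 ± 0.07 in silenced cells.

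UQCR10, a small subunit of complex III, read 11.85, 12.11 and 11.96 in vehicle and 12.40, 12.37 and 12.39 in R1881 with control siRNA, and 11.99, 12.03 and 11.91 against 12.27, 12.40 and 12.37 after silencing. Its R1881 arrays were all above its vehicle arrays. It rose by 0.42 ± 0.08 (limma adjusted p = 4.42e-04) and 0.37 ± 0.08 (adjusted p = 0.00140), and its dimmer probe set changed by 0.32 and 0.27 without passing the test. UQCRQ rose in control cells, by 0.23 ± 0.07, and UQCRB changed by -0.21 ± 0.07 in silenced cells, where it was called lower. In complex IV COX7B2 rose by 0.51 ± 0.10 and 0.52 ± 0.10 (adjusted p = 7.65e-04 and 8.74e-04), and COX5A (-0.25 and -0.22) and COX4I1 (-0.19 and -0.22) fell in both. COX6B1 rose in control cells, by 0.24 ± 0.07, and COX7C fell there, with a change of -0.20 ± 0.08.

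In ATP synthase the genes that fell and the genes that rose with R1881 in control cells belonged to different parts of the enzyme. Of 9 genes for the catalytic head and the stalks, 5 fell and 0 rose in control cells, and 3 fell and 0 rose in silenced cells. Of 7 genes for the membrane part, 3 rose and 0 fell in control cells, and 2 rose and 1 fell in silenced cells. Over all genes 26.9% rose and 33.8% fell in control cells, and 25.5% rose and 27.7% fell in silenced cells. In silenced cells the share of head and stalk genes that fell and of membrane part genes that rose was near these. The median change was -0.17 and -0.19 in the first set and 0.12 and 0.10 in the second. The grouping follows the protein's architecture, but its split was noticed in these data and no test was made of it. With quantile normalization the medians were -0.23 and -0.09 for the head and stalks and 0.24 and 0.11 for the membrane part, where 4 rose and 2 fell in control cells. With the GAPDH difference as a covariate 2 head and stalk genes fell in control cells and 3 in silenced cells, and 0 membrane part genes rose in either, with medians of -0.28 and -0.17 for the first set and 0.05 and 0.07 for the second.

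ATP5F1D, the delta subunit at the foot of the rotor stalk, read 11.24, 11.13 and 11.09 in vehicle and 10.64, 10.67 and 10.48 in R1881 with control siRNA. After silencing it read 11.32, 11.22 and 11.28 against 11.01, 10.99 and 11.07. R1881 arrays were below vehicle arrays in both, and the changes were -0.56 ± 0.07 (limma adjusted p = 3.69e-05) and -0.25 ± 0.07 (adjusted p = 0.0140). ATP5PO, which joins the peripheral stalk to the head, changed by -0.42 ± 0.09 and -0.22 ± 0.09, the rotor subunit gene ATP5F1C by -0.32 ± 0.10 and -0.19 ± 0.10, and the catalytic beta subunit gene ATP5F1B by -0.24 ± 0.06 and -0.12 ± 0.06. These 3 were called in control cells. ATP5PB, of the peripheral stalk, fell in both (-0.17 and -0.20), and the alpha subunit gene ATP5F1A fell in silenced cells (-0.29 ± 0.08), but read 0.02 there with quantile normalization.

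Of the 3 genes for the same c subunit, ATP5MC1 rose. It read 8.79, 8.76 and 8.83 in vehicle and 9.08, 9.14 and 9.24 in R1881 with control siRNA, and 8.78, 8.81 and 8.83 against 8.90, 9.06 and 9.11 after silencing. Its vehicle and R1881 arrays were separate, with changes of 0.36 ± 0.07 (limma adjusted p = 9.51e-04) and 0.22 ± 0.07 (adjusted p = 0.0254). ATP5MC2 changed by -0.13 ± 0.07 and -0.24 ± 0.07, with a call in silenced cells, and ATP5MC3 did not pass the test on its brightest probe set. Its other bright probe set changed by -0.18 in control cells (limma adjusted p = 0.0485 in the fit of all probe sets) and 0.003 in silenced cells. Its dim one changed by -0.88 (adjusted p = 9.36e-05) and -0.65 (adjusted p = 0.00119). ATP5ME rose by 0.32 ± 0.09 and 0.23 ± 0.09, and ATP5MG by 0.27 ± 0.07 in control cells. Both encode small subunits of the membrane part. Of 4 passing probe sets of ATP5MG 3 were called higher in control cells. The other, at a mean level of 9.90, changed by -0.23 with either siRNA (limma adjusted p = 0.0570 and 0.0605 in the fit of all probe sets).

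**Figure D3:**
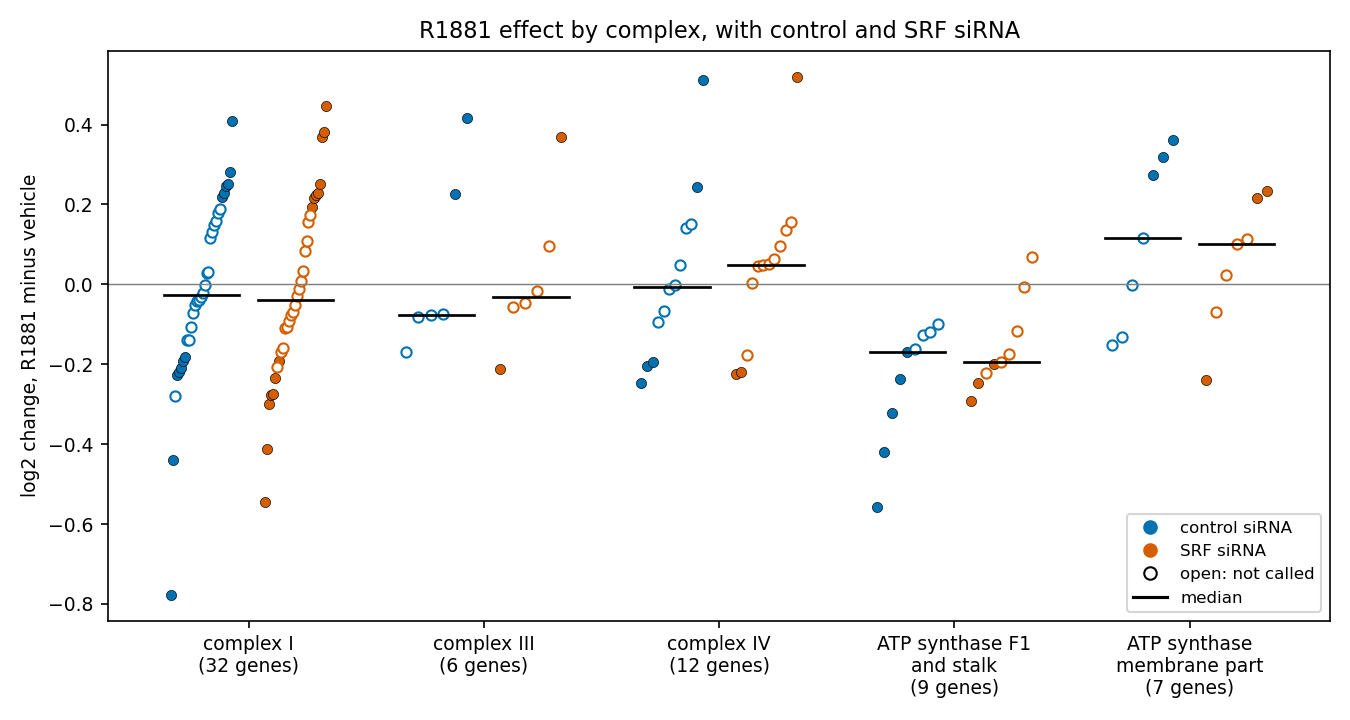
Change in log2 signal with R1881 for each tested subunit gene, by complex and part of ATP synthase, in control cells (blue) and SRF-silenced cells (orange), with called genes filled and a bar at the median. The head and stalk genes of ATP synthase have medians of -0.17 and -0.19 and the membrane part medians of 0.12 and 0.10.

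The R1881 calls in control cells were sensitive to the arrays and the RNA quality measure. The count of 15 members that fell became 8 without the second array of control siRNA with vehicle or the third with R1881, and 9 without the third with vehicle or the second with R1881. With the GAPDH difference as a covariate 0 rose and 6 fell in control cells and 6 rose and 15 fell in silenced cells. That fit also called fewer of all genes, 38.2% and 46.9% against 60.6% and 53.1%, so the loss was not particular to these members. With quantile normalization 12 rose and 25 fell in control cells, 2 of the latter in the membrane part of ATP synthase. The count of 12 that rose in silenced cells became 7 without the second or the third array of SRF siRNA with R1881.

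The R1881 effect was not called different between silenced and control cells for any of the 70 members, where 23.8% of all genes were called. Here 3 members had an unadjusted limma p under 0.05. The differences, silenced minus control, ran from -0.34 to 0.31 with a median of 0.01. All 95% intervals lay between -0.61 and 0.60, the outermost ends over the 70 members. At the median an interval reached 0.23 to either side of the estimate. For each gene, differences within its own interval were not excluded. ATP5F1D came nearest to a call, with a difference of 0.31 ± 0.10 (limma adjusted p = 0.0501). NDUFS6, a zinc-binding accessory subunit of complex I, had a difference of -0.34 ± 0.12 (adjusted p = 0.0716). It read 10.92, 10.96 and 10.74 in vehicle and 11.02, 10.98 and 11.00 in R1881 with control siRNA, and 10.63, 10.78 and 10.94 against 10.54, 10.53 and 10.66 after silencing. NDUFA5 had a difference of -0.23 ± 0.10 (adjusted p = 0.123). Other settings called between 0 and 3 members here.

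In all 10 subunit genes were called in none of the 5 comparisons on their brightest probe sets: NDUFA11, NDUFB9, NDUFS4 and NDUFV3 of complex I, UQCRC1 of complex III, COX6A1 and COX7A2L of complex IV, and ATP5MJ, ATP5MK and ATP5PF of ATP synthase. COX7A2L, which links complexes III and IV in supercomplexes, changed by -0.13 to 0.14. Further probe sets of ATP5MJ and NDUFV3 were called in the limma fit of all probe sets. That of ATP5MJ, at a mean level of 9.88, rose by 0.76 with silencing under either treatment (adjusted p = 2.69e-05 and 2.18e-05). It rose by 0.32 with R1881 with either siRNA (adjusted p = 0.00837 and 0.0103). That of NDUFV3 changed by -0.80 and -0.99 with R1881 (adjusted p = 0.00128 and 3.54e-04). A p above the threshold does not show that a gene was unchanged.

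Beside COX7B2, which was tested, the other 5 tissue-restricted isoforms of complex IV did not pass the filter. COX4I2, the form of COX4 known from lung, read 2.82 to 3.21 over the 12 arrays. COX6A2 and COX7A1, the heart and skeletal muscle forms, read 2.18 to 2.22 and 2.25 to 2.42. The testis forms COX6B2 and COX8C read 2.28 to 2.37 and 2.66 to 2.76. Values of 2 to 3 are the level of dim probe sets in these data, and no order can be read from them. Their widespread counterparts COX4I1, COX6A1, COX6B1, COX7A2 and COX8A were all tested. ATP5MF read 2.73 to 2.82 on its one single-symbol probe set, since its brighter probe set carries 2 symbols. NDUFV1-DT and COX6A1P1 did not pass the filter, and NDUFB2-AS1, NDUFV2-AS1 and ATP5MC2P1 were tested and never called. NDUFC2, NDUFS5, NDUFS8, UQCRH and UQCRHL lie only on probe sets with several symbols and were not analysed here. COXFA4, whose older symbol was NDUFA4 and whose protein belongs to complex IV, falls outside the rule and changed by -0.31 ± 0.07 with silencing in vehicle (limma adjusted p = 0.00207) and -0.16 ± 0.07 in R1881 (adjusted p = 0.0613). COXFA4L2 read near 2.61 in each group.

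On the array 43 members have more than 1 probe set, and these did not always move alike. Of 28 members with at least 2 passing probe sets, 0 had opposite calls for R1881, 2 for silencing in vehicle (ATP5MC3 and NDUFS1) and 3 for silencing in R1881 (ATP5MC3, NDUFB8 and NDUFC1). A rule chosen after these values were seen took the 18 further probe sets that pass the filter and lie at least 3 log2 units under their gene's brightest one. With silencing 9 of them rose and 2 fell in vehicle, and 10 rose and 1 fell in R1881. Among all 1699 such probe sets 21.4% rose and 19.2% fell in vehicle, and 22.2% rose and 21.0% fell in R1881. With R1881 1 rose and 10 fell in control cells, against 20.0% and 25.8%, and 1 rose and 8 fell in silenced cells, against 14.2% and 22.9%. Their median changes were 0.37 and 0.53 with silencing and -0.37 and -0.23 with R1881. The dim probe set of ATP5F1C, for example, rose by 1.67 and 2.26 with silencing, where its brightest one changed by 0.24 and 0.37.

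**Figure D4:**
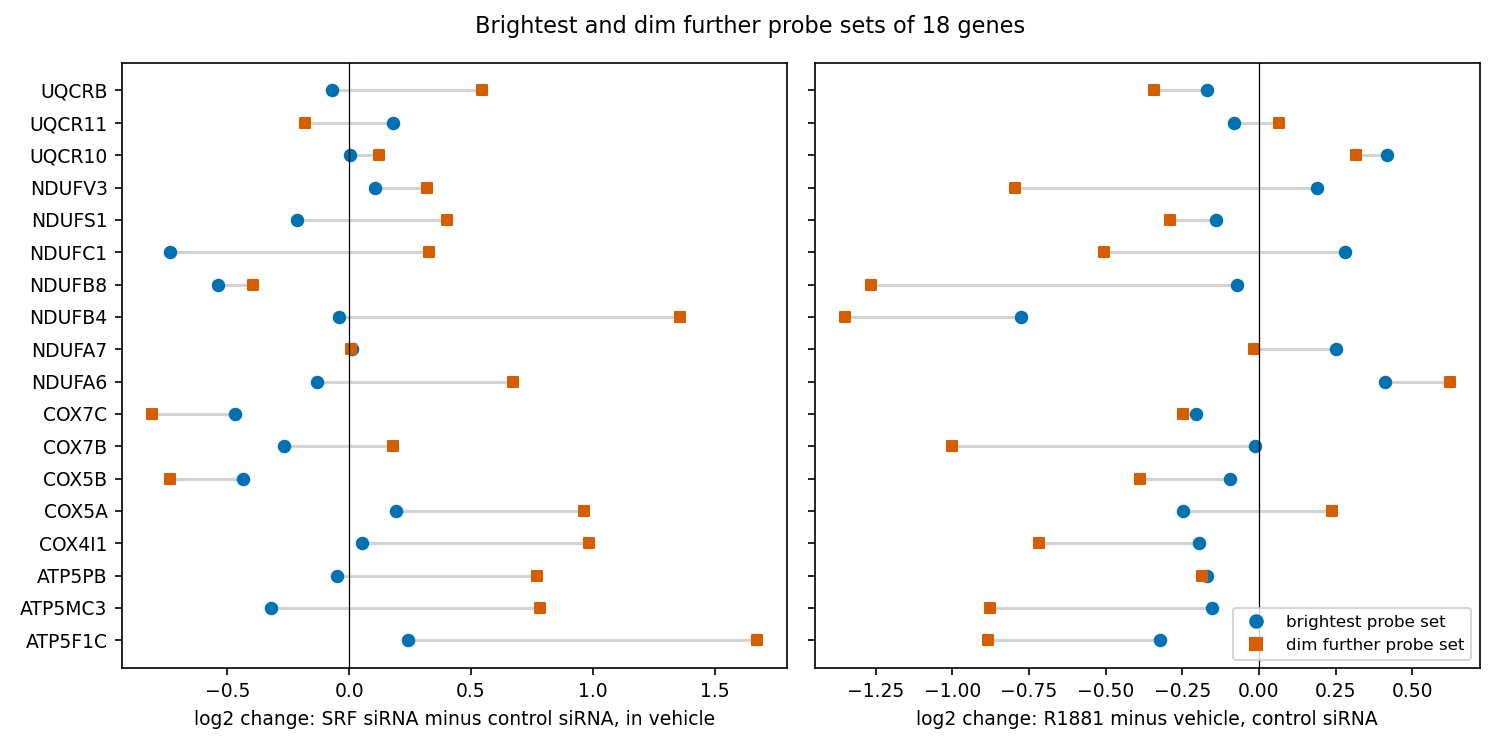
Change in log2 signal of the brightest probe set (blue circle) and of the dim further probe set (orange square) of 18 genes, with silencing in vehicle on the left and with R1881 in control cells on the right. On the left 9 of the 18 dim probe sets rose and 2 fell, and on the right 1 rose and 10 fell.

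The other genes of the pathway were described from lists of assembly factors, carriers and regulators. Their counts stand beside 26.9% of all genes higher and 33.8% lower with R1881 in control cells, 30.7% and 25.0% with silencing in vehicle, and 33.6% and 25.4% with silencing in R1881. Shares of the assembly factor lists near these are no result about the lists, and their genes are named for their own changes. Among 6 further chain subunits, cytochrome c1 (CYC1) changed by -0.50 with R1881 in control cells and rose with silencing in R1881 by 0.70, and its R1881 effect differed between silenced and control cells by 0.46 ± 0.11 (limma adjusted p = 0.00855). The complex II subunits went apart with silencing: SDHD rose by 0.44 in vehicle and 0.50 in R1881, and SDHC changed by -0.45 and -0.56. In the whole list 3 rose and 1 fell with silencing in vehicle and 4 rose and 1 fell in R1881.

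Of 18 complex I assembly factors, 5 rose and 3 fell with R1881 in control cells, and 7 rose and 5 fell with silencing in vehicle. NDUFAF4 changed by -1.08 with R1881 in control and -1.24 in silenced cells and rose with silencing by 0.80 and 0.63. TMEM126B fell with silencing (-0.84 and -0.78). Of 10 assembly factors of complexes II and III, 3 rose and 4 fell with R1881 in control cells, and 5 rose and 4 fell with silencing in vehicle. UQCC2 rose with R1881 in control cells by 1.21 and changed by -1.58 with silencing in R1881, with a difference of R1881 effects of -1.19 ± 0.18 (limma adjusted p = 5.60e-04). TTC19, which acts in complex III biogenesis, rose with silencing by 1.27 and 1.34.

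Among 25 complex IV assembly factors 10 rose and 7 fell with R1881 in control cells, and 8 rose and 7 fell with silencing under either treatment. CMC2 had the largest change of any gene on these lists with R1881 in control cells, 2.04 ± 0.07, and its R1881 effect differed by -1.26 ± 0.10 in silenced cells (limma adjusted p = 5.45e-06). COX16 fell with silencing (-0.81 and -0.78). LRPPRC, which stabilizes mitochondrial messenger RNAs, changed by -0.70 with R1881 in control cells and rose with silencing in R1881 by 1.02. Of 11 ATP synthase assembly factors and carriers, 4 rose and 3 fell with R1881 in control cells, and 3 rose and 5 fell with silencing in vehicle. The ADP/ATP carrier gene SLC25A5 rose with R1881 by 0.89 and 0.65, and the ATP synthase factors DMAC2L and FMC1 changed by -0.65 and -0.61 with silencing in vehicle.

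Of 18 regulators of mitochondrial genes tested, 8 rose and 2 fell with silencing in vehicle, where 30.7% of all genes rose and 25.0% fell. In R1881 12 rose and 1 fell, against 33.6% and 25.4%. The median changes were 0.16 and 0.48, against 0.04 and 0.06 over all genes. The mitochondrial helicase gene TWNK rose by 1.60 ± 0.14 and 2.27 ± 0.14 (limma adjusted p = 1.79e-06 and 8.24e-08), and the ribosomal RNA methyltransferase gene TFB1M by 1.06 ± 0.11 and 1.43 ± 0.11. MTERF1, a transcription termination factor, changed by -0.61 and -0.71. With R1881 2 rose and 8 fell in control cells (26.9% and 33.8% of all genes), where TFAM, which packages mitochondrial DNA, changed by -0.87 ± 0.07 and POLG2 by -1.05 ± 0.18. In silenced cells 4 rose and 1 fell (25.5% and 27.7% of all genes). The R1881 effect differed for 4 of the 18, all higher in silenced cells, among them POLRMT with 0.75 ± 0.16 and POLG with 0.70 ± 0.10, where 13.2% of all genes were higher. With the GAPDH difference as a covariate 0 rose and 4 fell with R1881 in control cells, 1 rose and 1 fell in silenced cells, and 4 rose and 1 fell with silencing in vehicle.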

How the data were processed

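Total RNA (3.5 µg) of LNCaP cells was hybridised to 12 Affymetrix arrays, 3 in each of 4 groups. The deposited values are log2 signals, 1 per probe set and array, made with GCRMA per the submitters' processing notes (version not given in the sources used here). They were used as deposited (array medians 2.97 to 3.06), and the number of arrays limits the precision. Of 54675 probe sets, 41091 had 1 symbol. A probe set was kept above a log2 value of 4 on at least 3 arrays, and the brightest one was used for each of 10265 genes. GCRMA uses sequence-based background estimates, so dim values depend on them.

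Group means were fitted with limma 3.58.1 in R 4.3.3 and adjusted by Benjamini-Hochberg over all genes. The fit was tested on simulated data. The 5 comparisons were R1881 with either siRNA, their difference, and silencing under either treatment. Named members were the 5 called ones that moved most each way per comparison, isoforms, core complex I subunits and untested members, and from each pathway list the 2 called ones that moved most each way. Other members named with their values were chosen after these were seen. The members and lists were chosen with earlier results of these data known. Alternatives changed the filter, floor, probe set, scaling, variance model, arrays, replicate block, thresholds and a GAPDH covariate. Promoters were searched in Python 3.11.15 and figures drawn with matplotlib 3.10.9.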

Additional observations from a re-analysis of the deposited data

How the results depend on the processing

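Counts of members stayed within 1.5 times the main count in 176 of 220 alternative counts, and named members kept direction and call in 1059 of 1140. Part of this agreement was fixed in advance. The filters and the floor leave the changes of named members as they are, as do probe set choices where 1 probe set passes. A count of 0 that stayed 0 was scored as within, and the stricter thresholds were left out for named members. These tallies are therefore no measure of robustness. For R1881 in control cells the 13 higher became 1 at a change of at least 0.5 and 0 with the GAPDH covariate, and the 15 lower became 25 with quantile normalization, 6 at an adjusted p under 0.01, 2 at a change of at least 0.5 and 6 with the covariate. For R1881 in silenced cells the 12 higher became 7 with only these groups, 6 at an adjusted p under 0.01, 1 at a change of at least 0.5, 6 with the covariate and 6 without array 3 of both silenced groups, and the 14 lower became 4 at an adjusted p under 0.01 and 1 at a change of at least 0.5. For the difference of R1881 effects, 0 became 1 higher with no filter, a filter above 5, values under 4 set to 4, the most variable probe set, the mean over probe sets, or eBayes with trend and robust, 3 higher with quantile normalization, and 1 lower with the most variable probe set, without x- or s-type probe sets, or with trend and robust. For silencing in vehicle the 6 higher became 14 with the most variable probe set, 12 with the mean, 13 without x- or s-type probe sets, 2 at a change of at least 0.5 and 3 with the covariate, and the 27 lower became 5 at a change of at least 0.5. For silencing in R1881 the 7 higher became 16, 14 and 12 with these 3 probe set choices, 12 with quantile normalization and 2 at a change of at least 0.5, and the 23 lower became 7 at that size. Leaving out 1 array at a time gave 10 to 13 higher and 8 to 15 lower for R1881 in control cells, 7 to 9 and 10 to 15 in silenced cells, 0 to 1 and 0 to 1 for the difference, 4 to 7 and 21 to 29 for silencing in vehicle, and 5 to 7 and 19 to 23 in R1881. Directions turned for ATP5F1A with R1881 in silenced cells (0.023, quantile normalization) and for NDUFC1 there (-0.18, most variable probe set). With silencing in vehicle the most variable probe set turned ATP5MC3 (0.78), COX7B (0.18), NDUFC1 (0.33) and NDUFS1 (0.49), the mean turned ATP5MC3 (0.076) and NDUFS1 (0.23), and leaving out x- and s-type probe sets turned NDUFS1 (0.49). With silencing in R1881 the most variable probe set turned ATP5MC3 (1.01), NDUFB8 (0.68) and NDUFC1 (0.65), and the mean turned ATP5MC3 (0.24) and NDUFC1 (2.27e-04). The cause of these moves was not tested. With the replicate number as a block 13 rose and 10 fell and 9 rose and 13 fell with R1881 in control and silenced cells, and 5 rose and 26 fell and 7 rose and 23 fell with silencing in vehicle and R1881. Arrays of one number did not deviate together (r of -0.21 to 0.10), so the numbers were not taken as pairs. Between arrays of different numbers r ran from -0.07 to 0.21. It was highest for control vehicle array 1 with silenced vehicle array 3 (0.21) and control vehicle array 3 with silenced vehicle array 1 (0.20). A pairing in another order was not tested. The fit on only the groups compared gives no value for the difference of effects. The part of background estimation in the changes of dim probe sets was not tested.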

Other observations

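Genes of mitochondrial import and cristae were called in both directions. Of 31 tested, 10 rose and 5 fell with silencing in vehicle, where 30.7% of all genes rose and 25.0% fell, and 15 rose and 4 fell in R1881, against 33.6% and 25.4%. The share that rose in vehicle was near that of all genes. TOMM22, a receptor of the outer membrane import pore, rose by 0.84 and 0.97, and the prohibitin gene PHB2 by 0.65 and 0.93. TIMM17B, of the inner membrane translocase, changed by -0.68 and -0.80. With R1881 5 rose and 5 fell in control cells, and 6 rose and 4 fell in silenced cells, where 26.9% and 33.8%, and 25.5% and 27.7%, of all genes did so. The import receptor gene TOMM20 changed by -0.78 with R1881 in control and -0.38 in silenced cells, and TOMM34 by -0.92 and -0.56. MICOS10, of the complex that shapes cristae junctions, rose by 0.72 and 0.80. The R1881 effect was called higher in silenced cells for 4 of the 31, near the 13.2% of all genes. It differed for TOMM20 by 0.40 ± 0.09 (limma adjusted p = 0.00900).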
